A study of Mus musculus with 28 samples.

Results

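The binding of Ldb1 was set beside that of Rad21 in control mature olfactory sensory neurons of the mouse, the cells of the nose that detect odours. The members were the peaks on chromosomes 1 to 19, X and Y of the 5 control lists, 3 for Ldb1 and 2 for Rad21, which held 108461 of the 201457 peaks in the 11 lists of the series. The Ldb1 lists held 24877, 28879 and 16067 peaks and the second Rad21 list 28151, while the first Rad21 list was the shortest of the 5. Ldb1 peaks that overlapped between lists were joined, and 22789 regions with peaks of at least 2 Ldb1 libraries were kept, of which 14851 had peaks of all 3. Both factors were mapped by crosslinked ChIP-seq with anti-Ldb1 and anti-Rad21 antibodies in neurons of OMP-IRES-GFP animals, in which GFP is made from the Omp locus of mature neurons. The labels name no deletion in these neurons. CTCF lists of the same control neurons (2), Ldb1 lists of Lhx2 KO neurons (2; OMP-IRES-Cre with the floxed allele Lhx2fl/fl and the reporter Rosa-CAG-tdtom+/fl, so that Cre is made from the Omp locus) and Ldb1 lists of Olfr1507+ cells (2; M28-IRES-GFP) served as other readouts of the same regions. The labels do not say whether libraries came from separate animals, so the spread between them may be technical. The lists carry no read numbers, so the depth of each library is unknown. The peak lists carry no measure of RNA, and the cell type was not checked against expression markers. Ldb1 regions lay within 10 kb of the mature neuron genes Omp, Adcy3, Cnga2 and Gng13. They also lay within 10 kb of the immature neuron genes Gap43, Gng8, Stmn2 and Dcx, so they do not tell the cell type.

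Ldb1 is a cofactor without a DNA-binding domain of its own. It dimerises and reaches DNA through LIM-homeodomain proteins, among them Lhx2 in olfactory neurons, and it can bring distant enhancers together. Rad21 is the kleisin subunit that closes the ring of cohesin, the complex that extrudes chromatin loops and is often halted at sites bound by the zinc finger protein CTCF. Odorant receptor (OR) genes lie in clusters that also hold enhancers bound by Lhx2, Ebf proteins and Ldb1, and each mature neuron uses a single receptor.

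For each Rad21 class, the promoter with the strongest Ldb1 region among those that touch the window from 250 bases before to 50 after the start is shown first, because promoters with strong and weak Ldb1 differed in base composition. Each sequence is the 250 bases before a gene start in RefSeq's promoter table (GRCm38.p6), written 5′ to 3′ on the gene's strand. Capitals mark CG dinucleotides and the letters TAATTA, a core bound by LIM-homeodomain proteins, which reads the same on both strands and cannot overlap a CG. Lingo2 had Rad21 peaks of both libraries, Cntn4 of the second alone, Pop5 of neither, Fam214a of the first alone, and Cnga4 is the promoter with the strongest Ldb1 region inside an OR cluster.
Lingo2 (chr4:35845205-35845454, minus strand): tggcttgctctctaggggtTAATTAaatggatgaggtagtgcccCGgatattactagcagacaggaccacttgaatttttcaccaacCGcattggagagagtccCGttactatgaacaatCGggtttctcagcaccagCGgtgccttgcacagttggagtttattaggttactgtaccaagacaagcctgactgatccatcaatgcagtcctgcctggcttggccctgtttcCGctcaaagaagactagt
Cntn4 (chr6:106118515-106118764, plus strand): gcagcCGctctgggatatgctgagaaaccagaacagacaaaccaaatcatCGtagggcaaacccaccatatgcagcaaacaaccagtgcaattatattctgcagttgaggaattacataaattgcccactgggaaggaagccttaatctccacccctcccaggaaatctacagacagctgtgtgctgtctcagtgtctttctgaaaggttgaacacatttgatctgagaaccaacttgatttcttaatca
Pop5 (chr5:115235601-115235850, plus strand): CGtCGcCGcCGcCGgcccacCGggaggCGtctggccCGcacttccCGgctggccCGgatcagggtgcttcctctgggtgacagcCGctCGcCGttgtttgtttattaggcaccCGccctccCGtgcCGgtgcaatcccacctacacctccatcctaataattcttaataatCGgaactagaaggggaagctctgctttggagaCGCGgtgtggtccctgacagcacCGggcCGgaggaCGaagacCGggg
Fam214a (chr9:74952630-74952879, plus strand): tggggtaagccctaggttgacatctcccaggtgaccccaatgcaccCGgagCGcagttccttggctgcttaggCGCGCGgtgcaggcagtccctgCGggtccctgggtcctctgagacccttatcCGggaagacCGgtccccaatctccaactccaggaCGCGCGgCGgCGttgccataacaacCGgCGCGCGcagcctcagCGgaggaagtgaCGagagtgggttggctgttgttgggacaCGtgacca
Cnga4 (chr7:105404318-105404567, plus strand): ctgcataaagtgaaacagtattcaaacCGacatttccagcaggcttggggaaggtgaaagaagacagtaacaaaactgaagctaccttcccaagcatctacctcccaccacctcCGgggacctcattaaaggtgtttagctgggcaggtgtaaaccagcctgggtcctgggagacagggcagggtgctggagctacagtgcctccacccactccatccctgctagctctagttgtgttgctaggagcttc
The Lingo2 stretch held 1 TAATTA and 6 CG, and the Cntn4 stretch 2 CG. Pop5 and Fam214a held 23 and 20 CG, and Cnga4 held 2. Lingo2 and Cntn4 encode adhesion-type membrane proteins of neurons, Pop5 a subunit of ribonuclease P and Cnga4 a subunit of the olfactory cyclic nucleotide-gated channel.

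Most Ldb1 regions had no Rad21 peak, and how many did depended on the Rad21 library. Of the 22789 regions, 985 (4.32%, Wilson 95% interval 4.07 to 4.59%) overlapped a peak of the first Rad21 library by at least 1 base, and 5315 (23.3%, 22.8 to 23.9%) overlapped a peak of the second. Both libraries had a peak at 860 regions (3.77%), either had one at 5440 (23.9%), and 17349 (76.1%) had neither. Only 125 regions (0.549%) had a peak of the first library without the second, against 4455 (19.5%) of the second without the first. Among the peaks of each Ldb1 library on its own, 4.26%, 3.92% and 4.77% had a peak of the first Rad21 library (mean 4.32 ± 0.429%, SD, n = 3 libraries). For the second the shares were 23.1%, 20.99% and 25.6% (23.3 ± 2.33%), so the gap between the Rad21 libraries exceeded the spread between the Ldb1 libraries. Seen from Rad21, 985 peaks (9.39%) of the first list and 5316 of the 28151 (18.9%) of the second lay at an Ldb1 region. These intervals cover counting error only.

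Each list was then cut to its strongest peaks, as many as the first Rad21 list holds, and at this equal length the Ldb1 and Rad21 libraries shared few of their strongest peaks. Ranked by the authors' score within the list, an Ldb1 list shared 87.1 to 91.1% of its peaks with another Ldb1 list, and the Rad21 lists shared 73.5% with each other. Between the factors the share was 5.51 ± 0.101% with the first Rad21 library and 7.03 ± 0.208% with the second (SD, n = 3 Ldb1 libraries). Equal length thus brought the second Rad21 library close to the first: on the whole lists the shares were 23.3% and 4.32%. Among the top 5000 peaks 1.62 to 2.02% were shared, and among the top 1000 the shares were 0.3% with the first and 0.6% with the second Rad21 library in each of the 3 Ldb1 lists. The peaks that score highest for one factor were therefore mostly other sites than those that score highest for the other, although Rad21 peaks were frequent at the strongest Ldb1 regions, as the next comparison shows.

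**Figure D1:**
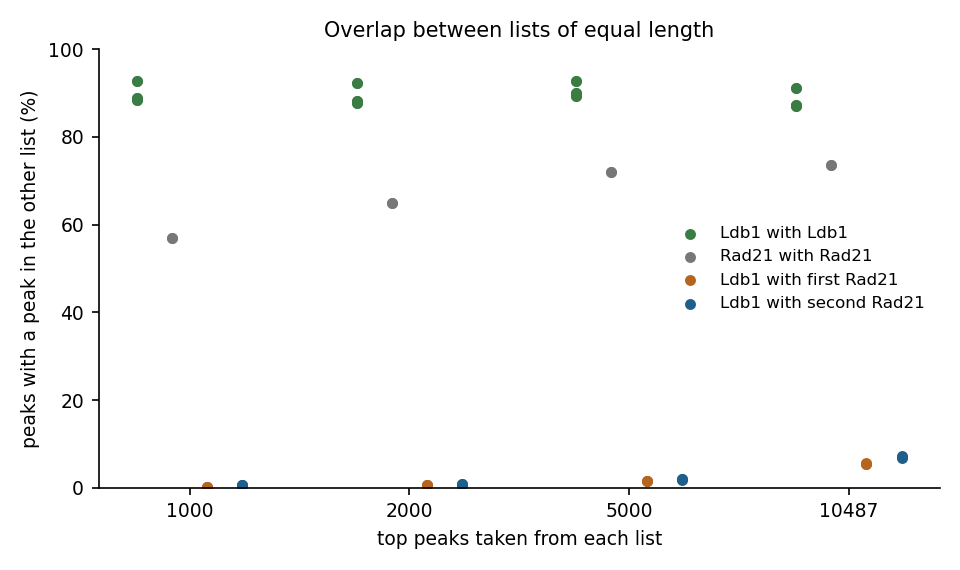
Share of the top peaks of one list that overlap a top peak of another list (y axis, %), for 4 equal list lengths (x axis, categories and not to scale); each point is 1 pair of lists. Ldb1 lists share over 87% with each other, while Ldb1 and Rad21 lists share between 5.42% and 7.17% at the longest length and under 1% at 1000.

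Rad21 peaks were most frequent at the strongest Ldb1 regions. The score percentile of a region, averaged over the 3 Ldb1 lists, gave its rank, and the ranking was divided into 10 equal groups. A peak of the second library lay at 50.2% of the strongest 10%, 32.2% of the next group, 23.0% of the one after it, and 16.9 to 19.4% of each of the weaker 7 groups. The first library had one at 12.7% of the strongest 10%, 4.48% of the next and 2.68 to 3.95% of the other 8. The strongest 10% exceeded the weakest 50% by 9.35 points for the first library and by 32.1 points for the second. When each Ldb1 library was ranked by its own score, the difference was 8.57, 7.81 and 11.9 points for the first Rad21 library (9.44 ± 2.20, SD, n = 3). For the second it was 28.9, 28.7 and 37.3 points (31.6 ± 4.92), larger than the spread in both cases and positive in 3 of 3 libraries (exact sign-flip permutation test, two-sided p = 0.25 for each, the smallest that 3 libraries allow). At the very top of the ranking, 68 of the 100 strongest regions had a peak of the second library, 32 of the first and 22 of both, while 13 had a CTCF peak. For the values of regions at equal list length, here and below, the Ldb1 regions were built and ranked anew from the cut lists. That gave 10382 regions, while the first Rad21 list stayed whole. On these regions the difference was 14.8 points for the first library and 13.6 for the second. The strongest 10% and weakest 50% are then other regions than above.

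**Figure D2:**
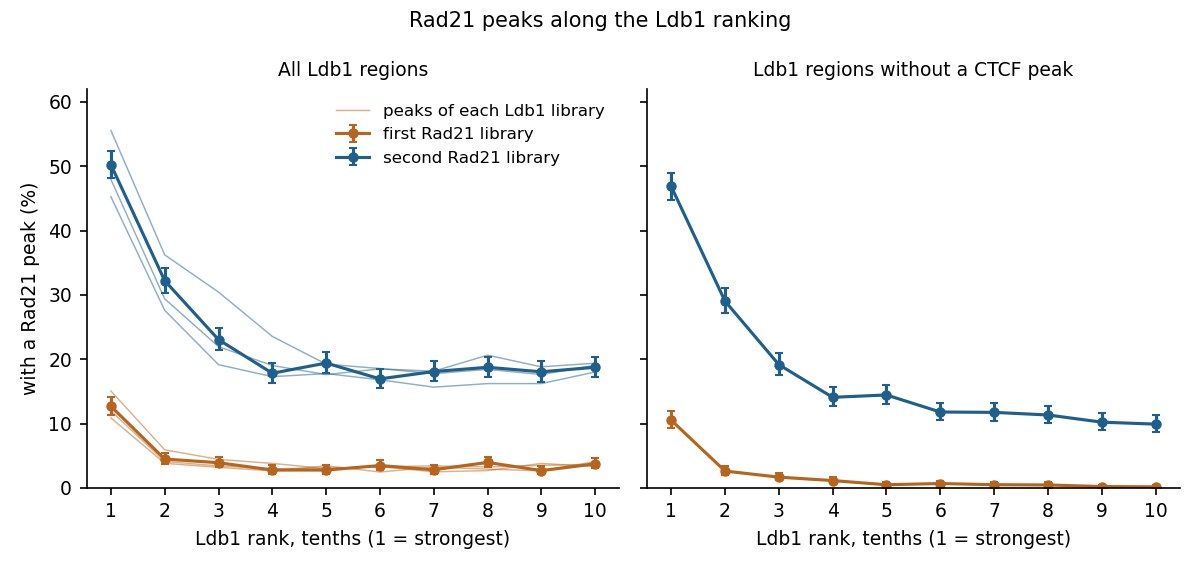
Share of Ldb1 regions with a peak of each Rad21 library (y axis, %) by group of 10% of the Ldb1 ranking (x axis), for all regions (left) and those without a CTCF peak of either CTCF library (right); bars are Wilson 95% intervals and thin lines are the peaks of each Ldb1 library on its own. The second library falls from 50.2% to about 18% on the left and from 46.9% to 9.90% on the right.

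The rank pattern was also present away from CTCF. Of the 20610 regions without a CTCF peak, 46.9% of those in the strongest 10% and 9.90% of those in the weakest had a peak of the second Rad21 library. For the first library the shares were 10.5% and 0.153% (3 of 1959 regions). The first list lay almost wholly at CTCF, with 94.8% of its peaks at a CTCF peak of either library, and the second less so, with 71.9%. Of the Rad21 peaks without a CTCF peak, 379 of 546 (69.4%) of the first list and 3700 of 7922 (46.7%) of the second lay at an Ldb1 region, against 6.10% and 7.99% of those with one. Among such peaks that were also distal, as defined in the next paragraph, 245 of 308 (79.5%) and 2098 of 3176 (66.1%) lay at an Ldb1 region. The Rad21 peaks at Ldb1 regions without CTCF were weak within their own lists, at a median score percentile of 17.8 in the first and 33.8 in the second. Rad21 peaks without a CTCF peak were seldom strong, wherever they lay. They made up 0.286% of the strongest 10% and 15.3% of the weakest in the first list. In the second list they made up 0.533% and 50.2%. Where a region had a Rad21 peak, the centres lay a median of 80.5 bases apart for the first library and 67 for the second.

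Promoter regions had Rad21 more often than distal ones, with a wider gap for the second Rad21 library. A promoter region lay within 1 kb of a protein-coding gene start, and a distal one more than 10 kb from every start and gene end. There were 2135 promoter regions (9.37%), 13469 distal (59.1%) and 7185 between. The second library had a peak at 44.03% of promoter regions and 19.97% of distal ones, a difference of 24.1 points. Over the Ldb1 libraries it was 24.9, 25.2 and 16.1 points (22.1 ± 5.15, SD, n = 3; exact sign-flip permutation test, two-sided p = 0.25, the smallest possible). The first library had a peak at 6.84% and 3.76% (difference 2.69 ± 0.486 points over the libraries, the same exact permutation p = 0.25). CTCF moved with position: 31.5% of promoter regions had a CTCF peak, against 5.57 to 8.82% in the classes of regions farther than 1 kb from a start, and its part in the difference was not tested. Without CTCF peaks the second library was at 30.2% of promoter regions, with a promoter minus distal difference of 13.7 points. The first was at 1.64% of promoter regions (interval 1.11 to 2.43%) and 1.94% of distal ones (1.71 to 2.19%). Its difference was -0.298 points, and the intervals overlapped. The 24.1 points of the second library fell to 11.7 with a reciprocal overlap of 50% and to 5.61 at equal list lengths.

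Among the joined regions, the second Rad21 library became less frequent with falling Ldb1 rank at distal ones. At promoter regions its share was highest in the weakest group. The first library had its lowest share in the weakest group at both positions, but not within each Ldb1 library. Over the 3 Ldb1 libraries its distal shares were 1.41 to 2.06% in the next to weakest group and 2.12 to 2.42% in the weakest. The difference between the rank effects at promoter and distal regions was not tested. In groups of 20% of the ranking from strongest to weakest, 42.5%, 18.8%, 15.0%, 12.2% and 8.04% of distal regions had a peak of the second library. For promoter regions the shares were 39.2%, 35.5%, 39.3%, 43.9% and 50.3%. For the second library the promoter and distal shares were thus close in the strongest 20% and far apart in the weakest. The first library had a peak at 8.50%, 7.81%, 7.96%, 6.74% and 5.71% of promoter regions in the same order, and at 8.73%, 3.08%, 2.18%, 2.31% and 1.88% of distal ones. For the second library the strongest 10% minus the weakest 50% was 38.9, 38.1 and 43.5 points at distal regions of the 3 Ldb1 libraries (40.2 ± 2.92), with 15.2 points at equal list lengths and 2.55 with the top 5000 peaks of each list. At promoter regions it was -6.93, -7.82 and -0.723 points (-5.16 ± 3.87), a small difference whose sign turned with a reciprocal overlap of 50%, with equal list lengths and without CTCF peaks. For the first library the promoter difference was 0.208, 0.851 and -4.66 points, without a common sign, and the distal one 10.1, 9.34 and 13.6 points. CTCF peaks were found at 15.7% of promoter regions in the strongest 20% and 38.6% in the weakest, against 7.77% and 5.03% of distal regions. Only 63 promoter regions fell in the strongest 10%, so the promoter values there rest on few regions.

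**Figure D3:**
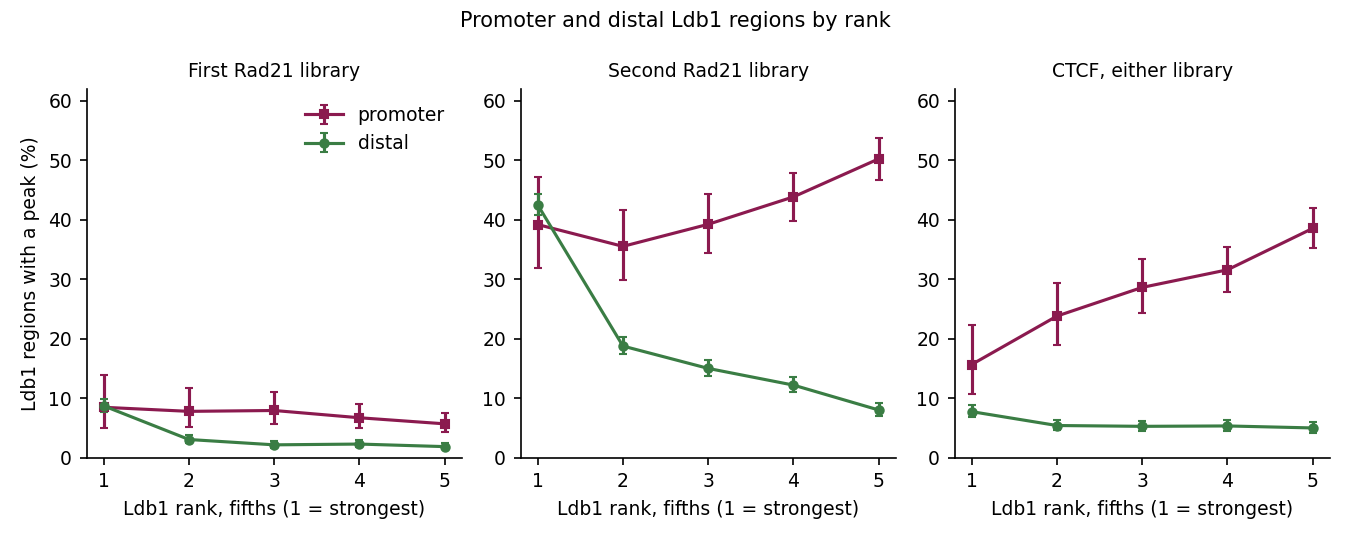
Share of promoter (squares) and distal (circles) Ldb1 regions with a peak of the first Rad21 library, the second, or either CTCF library (y axis, %), by group of 20% of the Ldb1 ranking (x axis), with Wilson 95% intervals. For the second library distal regions fall from 42.5% to 8.04% while promoter regions stay between 35.5% and 50.3%.

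The 5 strongest promoter regions are given one by one. The Lingo2 region (chr4:35845304-35845659), in the gene and under the sequence shown above, scored 549, 539 and 426 in the 3 Ldb1 libraries, 11 in the first Rad21 library (its rank 8141) and 34 in the second (rank 7063). The region 0.637 kb from Ankrd10 (chr8:11636563-11636900) scored 517, 525 and 425 for Ldb1 and had a peak of the second Rad21 library only (score 30). The region in Gng13 (chr17:25718304-25718643), the gamma subunit of the olfactory G protein, scored 401, 458 and 280 and had no Rad21 peak. Pop5 (343, 417 and 218) had none either, and Cntn4 (311, 375 and 208) had one of the second library (score 38). All 5 lacked a CTCF peak, and 3 of them had Rad21.

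Base composition of promoters differed along the Ldb1 ranking. Of the 21757 protein-coding genes 17476 had a start in the RefSeq table, and 1454 had an Ldb1 region over the 300-base window from 250 before to 50 after it, counted once per gene. The letters TAATTA were in 4.795% of all 17476 windows, in 10.3% of the 622 with Ldb1 and no Rad21, in 3.87% of the 723 with the second library alone and in 4.04% of the 99 with both. By groups of 20% of the Ldb1 ranking, from strongest to weakest, the share was 20.8%, 12.3%, 8.71%, 6.13% and 3.81%. These groups held 53, 122, 241, 408 and 630 windows, so the first share rests on 11 windows. The median GC content was 55.7% in the strongest group and 62.5% in the weakest, and its part in the TAATTA shares was not tested. A CG was in 94.7% of all windows, and the median number was 13. The median was 16 in the strongest 20% by Ldb1 and 24 in the weakest. Peaks of the second Rad21 library lay at 54.0% of windows with Ldb1 and 19.4% of those without. CpG content moved with this. At an observed over expected CpG ratio of at least 0.6 the shares were 56.9% and 37.4%, and under 0.6 they were 42.3% and 4.76%. These matches describe the letters in the windows and say nothing of a bound factor.

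The strongest distal regions included sites with and without Rad21. The highest-ranked region of all, 57.9 kb from Fam53a (chr5:33542129-33542466), scored 586, 587 and 496 and had neither Rad21 nor CTCF. The region in Zfp64 (chr2:168912543-168912880), a zinc finger gene, scored 578, 589 and 460 with a CTCF peak and no Rad21 peak. The region in Cmip (chr8:117446457-117446868; 583, 580 and 424) had a peak of the second Rad21 library whose centre lay 15 bases away. Regions in Phactr1 (chr13:42992326-42992663; 521, 553 and 402), a regulator of actin, and in Acbd6 (chr1:155605739-155606078; 505, 541 and 380), an acyl-CoA-binding protein, had peaks of both. Of the 10 strongest regions 8 had a peak of the second library and 4 of both. Ldb1 scores this high were thus found with and without Rad21.

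The 4 Rad21 classes differed in what else bound there. Regions without Rad21 seldom had a CTCF peak (3.08%), the single-library classes did more often (21.6% first only, 23.4% second only), and most regions with both did (67.1%, interval 63.9 to 70.2%). Regions with Rad21 of the second library stood higher in the Ldb1 ranking, at a median percentile of 61.1 (second only) and 60.4 (both) against 42.0 for neither. The 125 regions with the first library alone stood at 90.8, and 56.8% of them were in the strongest 10%. The next strongest members of these classes were Gse1 (chr8:120335641-120336006; 529, 568 and 386) and sites 7.53 kb from Ciao3 (496, 535 and 356), an iron-sulfur cluster assembly factor, and 26.4 kb from Ndufaf4 (496, 537 and 350), an assembly factor of respiratory complex I, all with the second library alone. Sites 3.50 kb from Pars2 (497, 549 and 384), a mitochondrial prolyl-tRNA synthetase, and 9.88 kb from Ttll10 (495, 515 and 362) had both. Among regions without Rad21 the next were 4.94 kb from Spocd1 (509, 521 and 331), 35.0 kb from Immp2l, a mitochondrial peptidase (459, 509 and 335), and 16.7 kb from Fblim1 (483, 509 and 312).

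Regions with Rad21 more often had an Ldb1 peak in the Lhx2 KO lists. The first Lhx2 KO library had a peak at 6.77% of regions with neither Rad21 library, 29.4% with the second only, 39.3% with both and 51.2% with the first only. In the strongest 10% alone, where the Ldb1 ranks are closer, the shares were 21.3% (of 1063 regions), 43.3% (of 927), 68.3% (of 218) and 61.97% (of 71). The second Lhx2 KO library, with a shorter list, gave 8.84%, 16.6%, 27.5% and 39.4% in the same order. In this strongest group neither, second only and both stood in the same order in the 2 KO libraries. In weaker groups of 10% the order of second only and both turned in places, as in the weakest one for the first KO library (16.6% and 6.02%). In Olfr1507+ cells the first library had a peak at 94.4 to 99.5% of each class in the strongest 10%. No test was made, since the regions of a class share their libraries.

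On the whole lists, the 2 Rad21 libraries stood in the opposite order at the strongest Ldb1 regions inside OR clusters to those outside. Among the weaker cluster regions they did not. A cluster was taken as 3 or more OR genes and pseudogenes no farther apart than 300 kb, with 100 kb added on either side, and the clusters held 164 Ldb1 regions, 30 of them in the strongest 10%. Of these 30, 19 (63.3%, interval 45.5 to 78.1%) had a peak of the first Rad21 library and 3 (10%, 3.46 to 25.6%) of the second. Outside the clusters the strongest 10% had 12.01% and 50.8%. Over the 3 Ldb1 libraries the shares inside were 64.5%, 61.1% and 76% for the first Rad21 library and 9.68%, 8.33% and 12% for the second, so the first exceeded the second in each, and the difference from the rest of the genome was not tested. Regions with the first library alone made up 17 of the 30, from 71 such regions in the whole strongest 10%. The 30 regions were spread over 12 chromosomes, and each of the 12 had at least 1 with a peak of the first Rad21 library. Among the other 134 regions in clusters 7 (5.22%) had a peak of the first and 17 (12.7%) of the second, the same order as outside. At equal list length, with the Ldb1 regions built and ranked anew, the strongest 10% held 21 cluster regions. Of these, 85.7% had the first library and 0% the second. The shares outside were not taken at that length. At the 19 strong regions the Rad21 peaks had a median percentile of 55.5 in the first list and their centres lay a median of 47.5 bases from those of Ldb1, and 3 of the 30 had a CTCF peak.

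**Figure D4:**
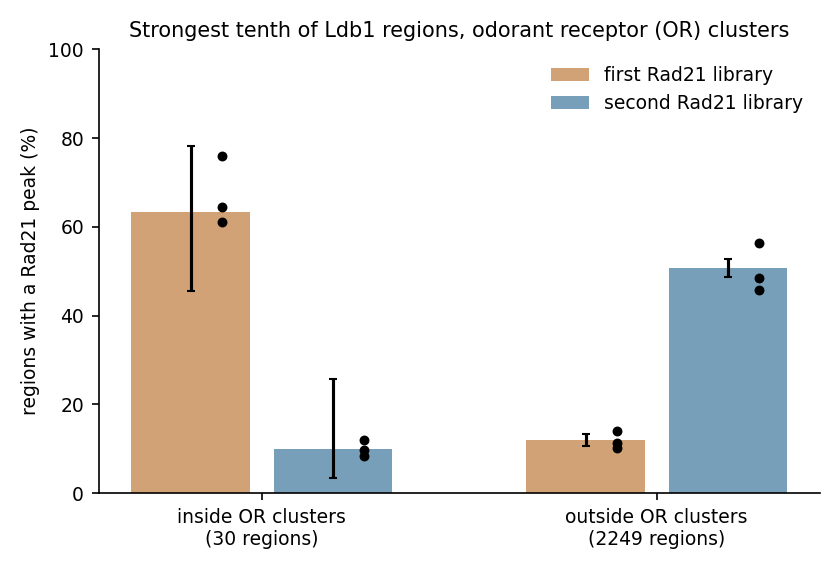
Share of the strongest 10% of Ldb1 regions with a Rad21 peak (bars, %), inside and outside OR clusters, for the 2 Rad21 libraries; error bars are Wilson 95% intervals of the regions and points the strongest 10% of each Ldb1 library. On the whole lists the first library is at 63.3% and the second at 10% inside, and at 12.01% and 50.8% outside.

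The 3 strongest Ldb1 regions of OR clusters all had a peak of the first Rad21 library alone, with no CTCF peak and with an Ldb1 peak in both Lhx2 KO libraries. One lay in Lpxn, a LIM-domain adaptor gene beside ORs (chr19:12830836-12831195), and scored 476, 522 and 345 for Ldb1 and 14 for Rad21. Another lay 10.8 kb from Olfr9 (chr10:128978794-128979136), with Ldb1 scores of 452, 490 and 362 and a Rad21 score of 18. The other lay 26.8 kb from Olfr1413 (chr1:92545948-92546294), with 439, 506 and 348 and a Rad21 score of 31, rank 663 in that list. The strongest member of the class outside a cluster lay 47.9 kb from Hs3st2, a heparan sulfate sulfotransferase (chr7:121549647-121549993; 496, 527 and 343; Rad21 score 20). Over whole lists, 26 of the 102 peaks of the first list in OR clusters and 20 of the 170 of the second were at Ldb1 regions, and 81 and 134 were at CTCF peaks.

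Gene function was examined with 23 lists, counting Ldb1 regions within 10 kb of a gene. Of all 21757 protein-coding genes, 8632 had such a region. Of these 8632 genes, 9.12% had a peak of the first Rad21 library at one or more regions and 39.5% of the second. Of the 16628 regions near them, 24.2% had a peak of the second library. Genes of olfactory transduction, which turn odorant binding into a current, had larger shares. Of 20 genes 19 had an Ldb1 region, 14 of these had one with the second library and 6 with the first. These 19 genes held 132 regions, more per gene than all genes, so the gene counts are not on an equal footing. By region, 51 of 132 (38.6%, interval 30.8 to 47.2%) had a peak of the second and 14 (10.6%) of the first, against 4.22% for all genes. Without CTCF peaks the second library was at 35 of 116 (30.2%), against 18.2%. The regions of the list also ranked higher for Ldb1, at a median percentile of 67.8 against 43.3 for all genes. In the strongest 10%, however, the list had the second library at 10 of 24 regions, and all genes at 758 of 1524, so the list did not stand above all genes there.

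Within olfactory transduction, Pde1c, the calcium-dependent phosphodiesterase of the cilia, had 21 Ldb1 regions, 12 with the second and 5 with both Rad21 libraries. Its strongest scored 390, 427 and 254 and had both. Ano2, the calcium-activated chloride channel, had 15 regions, 9 with the second library and 3 with both. Adcy3, the adenylyl cyclase of the pathway, had 10 regions with 5 in the second library, and Cnga2, the main channel subunit, had 2 with 1. Camk2d, a calcium/calmodulin-dependent kinase, had 12 regions, 1 with the first and none with the second library. Gng13 had 1 region and Omp, the olfactory marker protein, 2 (strongest 344, 387 and 236), all without Rad21. Pde1c and Ano2 are long genes with many regions, and together they held 21 of the 51 regions with the second library.

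**Figure D5:**
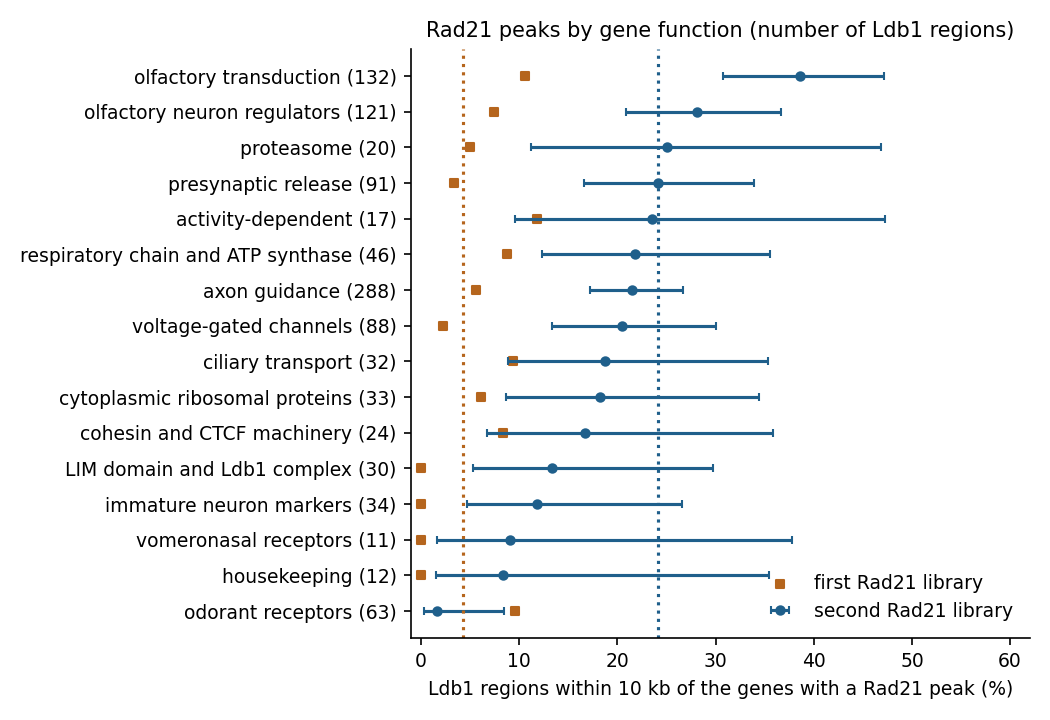
Share of Ldb1 regions within 10 kb of the genes of a list with a peak of the second (circles, Wilson 95% intervals) or first (squares) Rad21 library (x axis, %), for the 16 lists with at least 10 regions, the number of regions in parentheses; dotted lines give all protein-coding genes. Olfactory transduction is highest at 38.6% and odorant receptors are lowest at 1.59% for the second library.

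The other lists lay near or below all genes for the second library, and the intervals of all lists other than olfactory transduction and odorant receptors held the 24.2% of all genes. Olfactory neuron regulators, mostly transcription factors, had it at 34 of 121 regions (28.1%) and the first library at 9 (7.44%). Ebf3 had 15 regions, 4 with the second library, its strongest scoring 488, 514 and 352 with a second-library and a CTCF peak. Emx2 had 3 regions, and its strongest (359, 410 and 177) had a CTCF but no Rad21 peak. Ebf4 had 6 regions, 3 with the second library and 2 with both. Ebf1 had 26 regions, 9 with the second and 3 with both, although its strongest (328, 379 and 166) had none. Lhx2 had 4 regions and Ldb1 3, each with 1 region in the second library. Axon guidance genes had it at 62 of 288 (21.5%), with Nrp1, a semaphorin receptor, at 4 of 9 regions and Dscam, an adhesion receptor, at 2 of 24. Immature neuron markers were lower, at 4 of 34 (11.8%, interval 4.67 to 26.6%) and none with the first: Gap43, a growth cone protein, had 3 regions (strongest 379, 414 and 252) and Gng8 had 2, all without Rad21.

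Presynaptic release genes were level with all genes, at 22 of 91 regions (24.2%). Voltage-gated channels had 18 of 88 (20.5%), among them 3 of 9 in Scn9a. Ciliary transport had 6 of 32 (18.8%), LIM domain and Ldb1 complex genes 4 of 30 (13.3%), and the cohesin and CTCF machinery 4 of 24 (16.7%). Wapl, the cohesin release factor, and Ctcf each had 1 region and Nipbl, the cohesin loader, had 4, all without Rad21, and Smc1a had no Ldb1 region. The 4 regions of this list with the second library lay at 3 other genes. Among them was Pds5b, with 2 regions that both had both Rad21 libraries and a CTCF peak. Of the 19 regions of the list without a CTCF peak, 0 had the second library. Genes used in every cell lay near or below all genes: the proteasome 5 of 20 (25%), the respiratory chain and ATP synthase 10 of 46 (21.7%), ribosomal proteins 6 of 33 (18.2%) and housekeeping genes 1 of 12 (8.33%). In the same order, 30%, 28.3%, 21.2% and 8.33% of their regions had a CTCF peak, against 10.7% for all genes. Without CTCF peaks the second library was at 1 of 14, 4 of 33, 2 of 26 and 1 of 11, against 18.2% for all genes. At respiratory chain genes, Atp5g2 had 2 regions, both with both Rad21 libraries (strongest 290, 364 and 182). Activity-dependent genes had 4 of 17 (23.5%), with Ier2 at 1 of 3. Odorant receptors stood apart, with the second library at 1 of 63 regions (1.59%, interval 0.281 to 8.46%) and the first at 6 (9.52%), which is not independent of the clusters described above. Vomeronasal receptors had 1 of 11.

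Lists of other cell types are short and held few Ldb1 regions, so they give little to compare. An Ldb1 region lay within 10 kb of 6 of 14 basal and progenitor cell genes. The counts were 4 of 15 for sustentacular and gland cell genes and 8 of 15 for glial, immune and vascular genes. Of all 21757 protein-coding genes 8632 had one. Basal and progenitor cell genes had 6 regions, none with Rad21, sustentacular and gland cell genes had 5 with 1, and glial, immune and vascular genes had 9 with 2. Of 20 genes of other tissues 1 had an Ldb1 region. Clustered protocadherins had 5 regions with 1, trace amine receptors and Hox genes had 1 each without Rad21. The region within 10 kb of Muc5b, a mucin gene, scored 293, 363 and 182 and had both Rad21 libraries and CTCF. Kdm1a, a histone demethylase, had 1 weak region with the second library, Rtp1, a receptor transport protein, had 1 of 4, and Olfr1507 had no Ldb1 region within 10 kb.

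Over all peaks of a list, the strongest Rad21 peaks were less often at Ldb1 regions than the weakest ones. The 5 strongest Rad21 regions of both libraries that held an Ldb1 region all had a CTCF peak, and their Ldb1 percentiles ran from 3.75 to 52.8. The first, 16.3 kb from Skida1 (chr2:18027456-18027832), had Rad21 scores of 52 and 213 and Ldb1 scores of 14 and 11 in the second library and the third, with no peak in the first. A region in Lrrc75a (chr11:62613728-62614198) had Rad21 scores of 47 and 197 and Ldb1 scores of 11, 16 and 11. A region in Syn3, a synapsin gene (chr10:86498716-86499176), had 49 and 147 with Ldb1 scores of 29, 40 and 21. A region 21.1 kb from Ebf2 had Rad21 scores of 45 and 221, and one 22.3 kb from Tarbp1 had 45 and 207. By groups of 10% of the first Rad21 list, the share of peaks at an Ldb1 region rose from 6.10% at the strongest to 15.1% at the weakest, and in the second from 8.45% to 21.1%. CTCF peaks were at 99.7% and 84.7% of these groups in the first list and 99.5% and 49.8% in the second. With a CTCF peak, 5.83% and 6.76% of the first list and 8.18% and 6.50% of the second were at Ldb1 regions. Without one they were 3 of 3 and 98 of 160 in the first list, and 9 of 15 and 504 of 1414 (35.6%) in the second. The part of CTCF in the rise was not tested.

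The factors were last compared by where their peaks lay at equal list length. Promoter peaks made up 4.87 ± 0.300% of the Ldb1 lists (SD, n = 3) and 8.21% and 13.7% of the Rad21 lists. Gene bodies held 59.9 ± 0.183% against 50.5% and 55.2%, and 62.9 ± 0.238% were distal against 44.8% and 39.9%. The gene body and distal shares overlap, because a distal peak can lie inside a long gene. A CTCF peak was at 7.70 ± 0.0960% against 94.8% and 91.4%. In these 4 measures the 3 Ldb1 libraries lay apart from both Rad21 libraries, but the exact permutation test over 5 libraries cannot go below two-sided p = 0.1, which each reached (Benjamini-Hochberg adjusted over 5 measures, 0.125). On the lists in full length the exact permutation p was 0.1 for the distal and CTCF shares, 0.4 for promoters and 0.2 for gene bodies. OR clusters held 0.807 ± 0.0275% of the Ldb1 peaks, between the 0.973% and 0.544% of the Rad21 lists (exact permutation p = 0.7).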

How the data were processed

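Each list is the deposited peak list of 1 library, with peaks of 1 fixed width per list for the 5 Ldb1 and Rad21 control lists. The submitters' processing notes name cutadapt 1.9.1, Bowtie2 2.3.2, SAMtools 1.3.1, Picard, HOMER 4.7 and STAR 2.5.3a and the build mm10, but not what each did. Neither the peak threshold nor the control is given in the sources used here. Scores were deposited by the authors as whole numbers, with no stated scale across libraries, and served here for ranks inside 1 list, ties in file order. The files hold no reads, so depth is unknown. Chromosomes 1 to 19, X and Y were kept.

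Regions, ranks, positions and shares were computed with Python 3.11.15, pandas 2.3.3, numpy 2.4.6 and SciPy 1.17.1, and drawn with matplotlib 3.10.9. Peaks sharing at least 1 base were linked, an absent peak counted as percentile 0, and intervals are Wilson 95%. Starts came from RefSeq's promoter table and gene ends from a RefSeq gene table (both GRCm38.p6). Genes without a start in the table, among them those of chromosome 18, give no promoter region, and regions near their ends count as neither promoter nor distal. Libraries are the replicates: differences over 3 Ldb1 libraries were tested by exact sign flips and 5 libraries by exact permutation. Scripts were tested on simulated lists. The alternatives were the overlap rule, list length, support, ranking, promoter and gene windows, and leaving out libraries. The members, gene lists and tests were chosen with earlier results of these data known. Named items are the 5 strongest regions of each Rad21 class, of promoters and of distal regions, the 3 strongest in OR clusters, up to 3 members per list, the 5 strongest Rad21 regions with Ldb1, and genes always looked up, such as Omp, Adcy3, Cnga2, Ano2, Rtp1, Kdm1a and cohesin genes. Members on chromosome 18 and some members of small lists are not described.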

Additional observations from a re-analysis of the deposited data

Results flagged for a closer look

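Results were flagged here only where the signs were opposite in all 3 Ldb1 libraries, so that count gives no separate support. For the second Rad21 library the change with Ldb1 rank went in opposite directions at promoter and distal regions in 3 of 3 Ldb1 libraries. For the first it did so in 1 of 3. The share with a peak of the second Rad21 library in the strongest 10% minus that in the weakest 50% averaged -5.16 points at promoter regions and 40.2 points at distal regions. At promoter regions it was -6.93, -7.82 and -0.723 points in the 3 Ldb1 libraries, so the sign in the last rests on a very small difference. The difference between these effects was not tested, and the promoter value turned its sign under 3 of the alternatives below.

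The first minus the second Rad21 library in the strongest 10% of Ldb1 regions averaged 57.2 points inside OR clusters and -38.3 points outside. The signs were opposite in 3 of 3 Ldb1 libraries, which the rule for flagging required. This difference was not tested. It was taken on whole lists of unlike length, the first Rad21 list being the shortest. At equal list length the shares inside were 85.7% and 0% of 21 regions, and those outside were not taken. All 3 Ldb1 libraries were set against the same 2 Rad21 libraries, so they are no independent replicates of the Rad21 side.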

How the results depend on the processing

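The shares of Ldb1 regions with the first, second and both Rad21 libraries were 3.20%, 19.0% and 2.59% with a reciprocal overlap of 50% (either 19.6%), and 3.79%, 20.9% and 3.20% with centres within 200 bases. For regions in all 3 Ldb1 libraries they were 4.89%, 26.4% and 4.12% (either 27.2%). With lists of equal length (that of the first Rad21 list) they were 5.59%, 7.07% and 3.18% (either 9.48%), and with the top 5000 they were 1.64%, 1.98% and 0.747% (either 2.87%). Without CTCF peaks, a choice added after seeing the data, they were 1.85%, 17.9% and 1.37% (either 18.4%). Leaving out 1 Ldb1 library gave 4.30 to 4.88%, 23.3 to 26.3%, 3.75 to 4.12% and 23.9 to 27.1% (either).

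The rank difference was 14.8 (first) and 13.6 points (second) with lists of equal length and 5.08 and 2.296 with the top 5000. Leaving out 1 Ldb1 library gave 9.46 to 12.8 and 31.0 to 36.9. The promoter minus distal difference for the first library was 1.39 (reciprocal), 1.96 (centres), 1.98 (equal length), 0.263 (top 5000), 3.61 (promoter within 500 bases), 2.50 (2 kb) and -0.298 (no CTCF peak), and 2.78 to 3.25 without 1 library. For the second it was 11.7, 16.1, 5.61, 1.73, 30.2 (500 bases) and 13.7 (no CTCF peak), and 15.6 to 23.4 without 1 library. The promoter rank difference of the second library turned to 3.38 (reciprocal), 13.2 (equal length) and 1.84 (no CTCF peak). The values at equal length and with the top 5000 are for Ldb1 regions built and ranked anew, not for the same regions. The cause of these changes was not tested.

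Of the lists with at least 10 regions, 4 exceeded all genes for the second library within 10 kb and 9 within 50 kb. The OR cluster share of Ldb1 minus Rad21 lists was 0.0493 points, -0.0756 on whole lists and -0.165 without the second Rad21 library. Leaving out 1 library gave -8.87 to -3.34 (promoter), 4.77 to 9.39 (gene body), 18.1 to 23.0 (distal), -0.165 to 0.264 (OR cluster) and -87.1 to -83.7 points (CTCF). With the replicate number as a block the differences were -5.96, 7.14, 20.5, 0.0334 and -85.4 in the same order. The labels do not say that the numbers pair libraries, and 2 pairs allow no exact p under 0.5. Unknown depth limits all comparisons between the Rad21 lists.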
